A study of Arabidopsis thaliana with 18 samples.

Results

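The comparison described here is that of pif4pif5 double mutant seedlings of Arabidopsis thaliana after 24 h of far-red light with mutant seedlings from darkness, 3 arrays against 3 of the 18 in the series. The arrays were chosen by their titles alone. The remaining 12 arrays hold the same mutant after 1 h of far-red light and wild type in the same 3 conditions. All seedlings were in the Columbia background. Their seeds had spent 3 days in the cold, received red light for 3 h (50 µmol/m2/s) to start germination and been kept in the dark for 3 days. The dark group was harvested then, the 1 h group after far-red exposure at 0.5 µmol/m2/s and the 24 h group after exposure at 5 µmol/m2/s. Exposure time, fluence rate and seedling age thus differ together between the 24 h and the dark group, no dark group of the same age is among the labels, and the effects of these cannot be told apart. Whole seedlings were extracted, so fewer cells of a type and less RNA per cell cannot be told apart for any transcript below.

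PIF4 and PIF5 are basic helix-loop-helix transcription factors that promote elongation growth in darkness and shade. Light-activated phytochrome binds such factors and leads to their breakdown, and far-red light acts on etiolated seedlings through phytochrome A: elongation of the hypocotyl slows, cotyledons open and nuclear genes for photosynthetic proteins are induced, although chlorophyll synthesis itself needs shorter wavelengths. The double mutant lacks 2 members of this family and still has others, such as PIF1 and PIF3. The comparison asks which transcripts still respond to far-red light without PIF4 and PIF5.

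The array values are log2 intensities of probe sets, so values of different genes cannot be set against each other. Changes are the mean of the 24 h arrays minus the mean of the dark arrays, with the standard error (SE) of a linear model over all 18 arrays (limma), and a probe set counted as called at a Benjamini-Hochberg adjusted p under 0.05. On the 6 arrays the median over the 22746 tested probe sets lay between 5.61 and 5.88, and replicates correlated with r between 0.982 and 0.995 over probe sets. The number of arrays limits the precision, and no label describes the replicates as independent cultures. The p values therefore reflect the variation among these arrays alone, and that variation may be technical. No probe set is assigned to PIF4 or PIF5, so the genotype label was not checked on either of them. A total of 13436 probe sets stood for a single gene of the gene table, and 1610 of the 13286 genes they named carry a symbol or a descriptive name. The groups of genes below hold their measured members only.

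Of the tested probe sets, 11.5% were called: 964 were higher and 1641 lower after 24 h of far-red light (4.24% and 7.21%). Another measure of the same data, groups of 3 and 3 arrays that do not overlap, held for 31.8% of the probe sets. Among the called probe sets 454 rose by more than 2-fold and 415 fell by more than 2-fold. Falls were thus more numerous and smaller: the median change was 0.97 among the rises and -0.74 among the falls. The split between rises and falls depended on how the arrays were scaled. Rises made up 37.0% of the calls in the deposited values, 49.4% after quantile normalization and 63.9% after the arrays were shifted to a common median. That shift moved the median change over all probe sets from -0.04 to 0.11, so small changes of either sign have to be read against it.

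Among the named genes with the largest rises, CaS, PSAN, PIFI, PSBY and HEME1 encode chloroplast proteins. Among those with the largest falls, EXPA9, XTH19, GH9B13 and GH9B8 encode enzymes or proteins of the cell wall and TUB1 a tubulin. The 10 largest rises among genes with a symbol or name were those of AT3G21670 (NRT1/PTR family 6.4, a nitrate transporter), CaS, IQD24, THI2.2, PSAN, HPR, PIFI, PSBY, GSTU18 and HEME1, between 1.59 and 2.74 on the log2 scale. The 10 largest falls were those of TUB1, GH9B13, OLEO3, EXPA9, XTH19, WAG2, MSRB9, scpl40, GH9B8 and IQD26, between -3.32 and -1.86. In all 20 the dark and the 24 h arrays were separate, which the naming rule required. Where the separation of these genes is given again below, it is therefore not a further result.

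**Figure D1:**
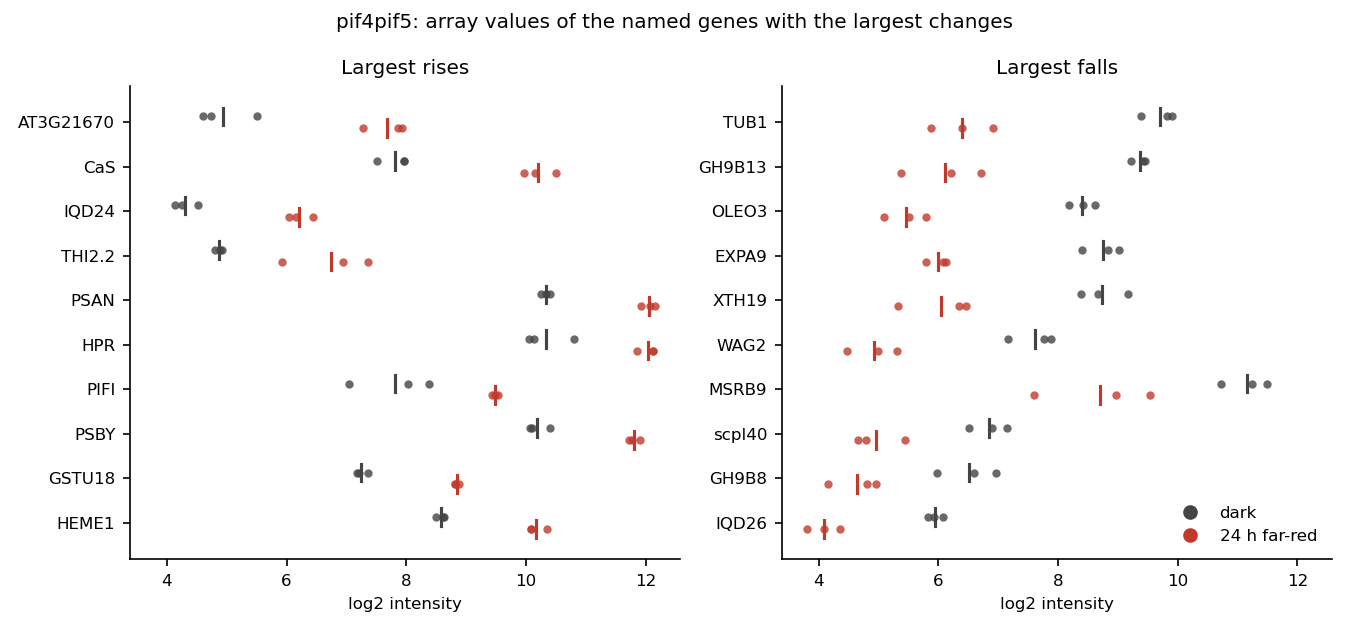
Log2 intensities of the 10 named genes with the largest rises (left) and the 10 with the largest falls (right) in pif4pif5; grey points are the 3 dark arrays, red points the 3 arrays after 24 h of far-red light and bars their means. The dark arrays lie between 4.14 and 10.81 for the rising genes and the 24 h arrays of each gene lie beyond them, as the choice of genes required.

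Of the 8 measured genes of the photosystems and light harvesting, 7 rose and 0 fell, with a median change of 1.22 against -0.04 over all probe sets. For comparison, 14.0% of all probe sets with a named gene were called, 4.42% higher and 9.58% lower. PSAN encodes a lumenal subunit of photosystem I. It read 10.26, 10.34 and 10.41 on the dark arrays (replicates A, B and C) and 12.08, 11.93 and 12.16 after 24 h. Every 24 h array was above every dark array, and the rise was 1.72 ± 0.13 (SE), or 3.29-fold (adjusted p = 9.09e-08). PSAE-1, another photosystem I subunit, rose by 1.29 ± 0.18 from dark arrays of 10.72, 10.67 and 10.63 to 11.95, 11.99 and 11.96. The 24 h arrays of PSAE-1 lay within 0.04 of each other and far above the dark ones. The photosystem II subunits PSBY and PSBW rose by 1.61 and 1.53. ATPC1, the gamma subunit of the chloroplast ATP synthase, rose by 1.08.

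The minor antenna protein CP29 is encoded by LHCB4.1, LHCB4.2 and LHCB4.3, and the 3 genes did not all pass the test. LHCB4.1 rose by 0.94 ± 0.17 (adjusted p = 0.000817) and LHCB4.2 by 1.16 ± 0.15 (adjusted p = 5.33e-05). LHCB4.3 read 6.83, 7.13 and 7.17 in darkness and 7.19, 7.15 and 7.36 after 24 h, so its groups overlapped, and the change was 0.19 ± 0.19 (adjusted p = 0.627). In wild type the change of LHCB4.3 was 0.96 and was called, but the difference between the genotypes was -0.77 with an adjusted p of 0.84.

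A wider set of 26 genes was drawn up after the values had been seen, from names that refer to thylakoids, the photosystems or the NDH complex, a chloroplast complex of cyclic electron flow. Of these, 16 rose and 1 fell, with a median change of 0.89. CaS, a thylakoid calcium-sensing protein, read 7.96, 7.96 and 7.51 in darkness and 10.15, 10.50 and 9.96 after 24 h. The lowest 24 h array lay 2.0 above the highest dark array, and the rise was 2.39 ± 0.30, or 5.26-fold (adjusted p = 2.97e-05). The NDH subunits NdhL, NdhS and NdhN rose by 1.48, 1.18 and 1.04. PIFI, named for the post-illumination rise of chlorophyll fluorescence that depends on NDH and no relative of the PIF factors, read 8.03, 7.05 and 8.38 in darkness and 9.48, 9.43 and 9.54 after 24 h. Its dark arrays spread over more than 1 unit, replicate B being the lowest, and the groups stayed apart, with a rise of 1.67 ± 0.24. AT1G52220 and AT4G01150, which encode the membrane-bending proteins CURVATURE THYLAKOID 1C and 1A, rose by 1.52 and 0.85. TROL, which anchors ferredoxin-NADP reductase to the thylakoid, rose by 1.2. Among the assembly factors of photosystem II, PSB27 rose by 1.07, LPA19 by 0.59 and LPA2 by 0.54. TAAC, a nucleotide carrier, was the member that fell, from dark arrays of 5.72, 5.89 and 5.40 to 4.69, 4.1 and 4.56, a change of -1.22 ± 0.18 (adjusted p = 0.000161).

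None of the genes encoded in the plastid genome was called. Of the 69 measured, 0 were called by limma, 2 had an unadjusted p under 0.05, and 0 were called when the arrays were weighted by their quality. Over all probe sets 11.5% were called and 23.7% had an unadjusted p under 0.05. The changes of the 69 ran from -1.25 to 1.34 with a median of -0.02, close to the median over all probe sets. At 1 h, against the same dark arrays, 65 of the 69 were lower, 0 were called and the median was -0.64. The median over all probe sets at 1 h was -0.07. A count of 0 calls thus does not show that these transcripts were unchanged.

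Chlorophyll and haem synthesis showed a rise of 4 of its 8 measured genes and a fall of 0, with a median of 0.80. The 4 were HEME1 and HEME2, which encode uroporphyrinogen decarboxylases, CHLI2, a subunit of magnesium chelatase, and CHLM, the next methyltransferase of the chlorophyll branch. HEME1 read 8.63, 8.61 and 8.49 in darkness and 10.09, 10.35 and 10.08 after 24 h, with a range of 0.27 among the 24 h arrays and no overlap. Its rise of 1.59 ± 0.16 was 3.01-fold (adjusted p = 2.93e-06). CHLI2, CHLM and HEME2 rose by 1.11, 0.98 and 0.87. HEMA2 and GSA1, which act in the first steps of the pathway, had changes of 0.04 and -0.18 and were not called. HEMB1 had a change of 0.73 and was not called either (adjusted p = 0.06). PORB, the light-dependent protochlorophyllide oxidoreductase, had a change of -0.59, also not called. With a term for the replicate letter in the fit, the list had 5 called rises.

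All 4 measured genes of carbon fixation and photorespiration rose. HPR, the peroxisomal hydroxypyruvate reductase of photorespiration, read 10.05, 10.14 and 10.81 in darkness and 11.86, 12.13 and 12.13 after 24 h. Dark replicate C was the highest of its group and still more than 1 unit under the lowest 24 h array. The rise of HPR was 1.71 ± 0.22, or 3.26-fold (adjusted p = 3.95e-05). RCA, the activase of Rubisco, rose by 1.13, and the Calvin cycle enzymes SBPASE and PRK rose by 0.99 and 0.74. The median of the 4 genes was 1.06.

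Thioredoxins of the chloroplast and related enzymes pass reducing power from the photosystems to chloroplast enzymes. Of 8 measured thioredoxin genes 4 rose and 1 fell. The fall was lost when the arrays were rescaled by quantiles or to a common median, which called 5 rises and 0 falls. The 8 genes were matched by name and are not all of the chloroplast. TO1 and TO2, the o-type members, had changes of -0.23 and -0.08 and were not called. TRXF2, thioredoxin f2, which activates Calvin cycle enzymes, read 6.72, 6.75 and 7.05 in darkness and 8.44, 8.16 and 8.42 after 24 h. The groups were more than 1 unit apart and the rise was 1.5 ± 0.15 (adjusted p = 2.54e-06). NTRC, a plastid thioredoxin reductase with a thioredoxin domain, rose by 0.99, ty2 (thioredoxin y2) by 0.83 and THX (thioredoxin x) by 0.81. TY1, thioredoxin y1, fell by 0.47 (adjusted p = 0.0342), against the direction of ty2. TAPX, the thylakoid ascorbate peroxidase, and CHL, the chloroplastic lipocalin, were the measured members of the photoprotection list, and they rose by 1.08 and 0.95. The redox enzymes AT5G58330 (NADP-dependent malate dehydrogenase), GR (glutathione reductase) and SRX (sulfiredoxin), named after their values were seen, rose by 1.03, 0.64 and 0.43.

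MSRB9, MSRB6 and MSRB5 encode methionine sulfoxide reductases, which repair oxidised methionine. MSRB9 read 11.24, 11.50 and 10.73 in darkness and 8.97, 9.53 and 7.59 after 24 h, a fall of 2.46 ± 0.43 on the log2 scale or 5.51-fold (adjusted p = 0.000618). The 24 h arrays spread over nearly 2 units, with replicate C the lowest, and none reached the dark arrays. MSRB6 and MSRB5 were named after their values were seen. MSRB6 rose by 1.39 ± 0.23 from 6.08, 6.20 and 5.97 to 7.48, 7.77 and 7.18. MSRB5, its neighbour in the genome, fell by 0.63.

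**Figure D2:**
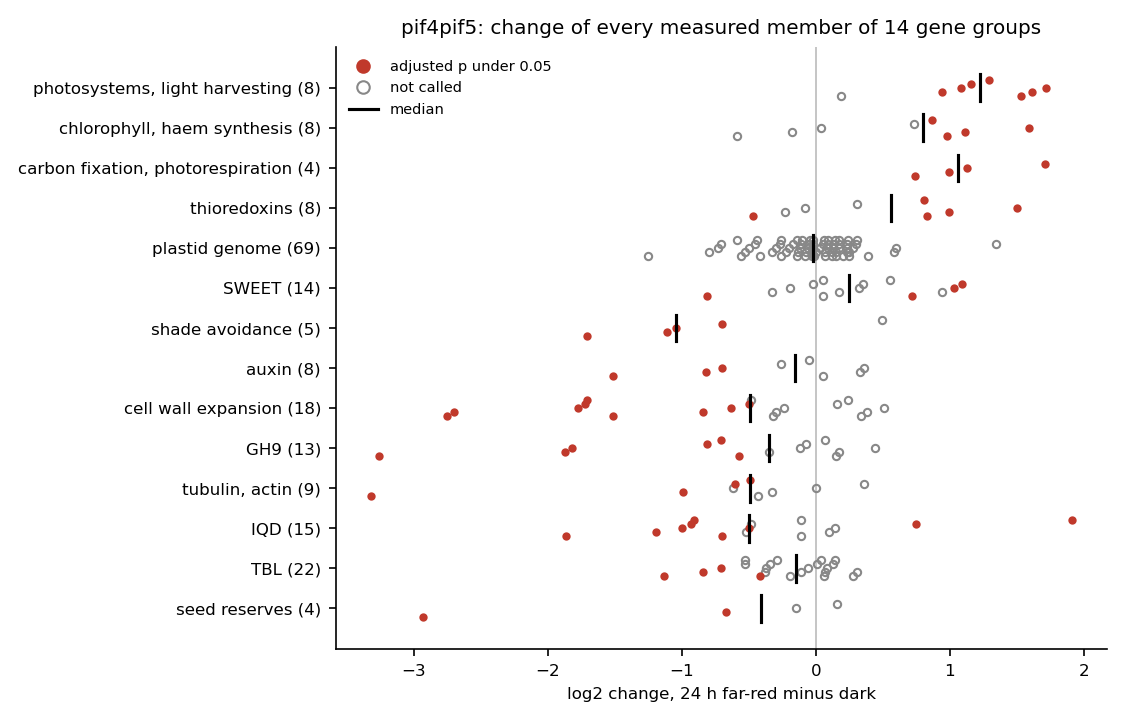
Log2 change (24 h of far-red light minus darkness) in pif4pif5 of every measured member of 14 gene groups, with the number of members in brackets; red points were called at an adjusted p under 0.05, open points were not, and black bars are group medians. The photosynthesis groups lie to the right with medians from 0.80 to 1.22, the 69 plastid-encoded genes centre on -0.02, and the cell wall, GH9, tubulin and IQD groups reach to the left with single members down to -3.32.

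Of the 18 measured members of the cell wall expansion list 9 fell and 0 rose, with a median of -0.49; after a shift to a common median 9 fell and 1 rose. Leaving out a single array left 7 or 8 falls. EXPA9 encodes an expansin, a protein that loosens the wall. It read 8.84, 9.01 and 8.40 in darkness and 6.08, 5.79 and 6.12 after 24 h, with more than 2 units between the groups. EXPA9 fell by 2.75 ± 0.18, or 6.75-fold (adjusted p = 3.28e-08). XTH19, a xyloglucan endotransglucosylase that cuts and rejoins wall polymers, fell by 2.70 ± 0.51, or 6.50-fold, from 9.17, 8.66 and 8.39 to 6.46, 6.34 and 5.33 (adjusted p = 0.00149). Its 24 h replicate C was the lowest, and the 24 h arrays ranged over 1.13. XTH18, which lies beside XTH19 in the genome, fell by 1.72, and XTH33 by 1.71. XTH18 and XTH19 are close relatives, and how far their probes share signal was not tested.

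Among the expansins as a family, 6 of 19 measured genes fell and 0 rose. The expansin-like genes EXLA2, EXLA1 and EXLA3 fell by 1.77, 0.84 and 0.63, the beta-expansin EXPB1 by 1.51 and EXPA4 by 0.50. The other expansins ranged from -0.48 (EXPA8) to 0.51 (EXPA16) and were not called. The family median was -0.10 and turned to 0.05 when the arrays were shifted to a common median, although the same number of 6 falls was called. EXPA9, EXLA2 and EXPB1 fell by more than 2-fold and the other called expansins by less.

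Endoglucanases of family GH9, which cut glucan chains in the wall, were grouped by symbol after the values had been seen. Of 13 measured GH9 genes 6 fell and 0 rose. GH9B13 read 9.46, 9.42 and 9.22 in darkness and 6.72, 6.21 and 5.38 after 24 h, a fall of 3.26 ± 0.34 or 9.60-fold (adjusted p = 3.22e-06). The dark arrays lay within 0.24 and the 24 h arrays spread over 1.34, with replicate C again the lowest. GH9B8 fell by 1.87, GH9C2 by 1.82, GH9C3 by 0.81, GH9B12 by 0.71 and GH9B5 by 0.57. GH9C3, GH9B12 and GH9B5 read under 5 on every array of both groups. The pectin methylesterase genes PME61 and ATPMEPCRB fell by 1.84 and 0.94. CSLC04, which makes the backbone of xyloglucan and was named after its value was seen, fell by 1.41. Of 22 measured TBL genes, a family that acetylates wall polymers, 4 fell and 0 rose, led by TBL39 with -1.13. Under quantile normalization 2 falls were called, and after a shift to a common median 1 gene rose and 2 fell. For comparison, 9.58% of all probe sets with a named gene were called lower in the deposited values. The TBL count is therefore not read as a fall of the family.

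Tubulins form the microtubules that guide cellulose deposition. Of the 9 measured genes of the tubulin and actin list 4 fell and 0 rose, all 4 of them beta-tubulins. TUB1 read 9.82, 9.91 and 9.39 in darkness and 6.39, 6.91 and 5.87 after 24 h. The groups were separated by more than 2 units and TUB1 fell by 3.32 ± 0.27, or 9.96-fold (adjusted p = 3.22e-07). TUB6 fell by 0.99 ± 0.13 (adjusted p = 3.02e-05). TUB5 and TUB7 fell by 0.60 and 0.49 (adjusted p = 0.0364 and 0.0352), and these small falls depended on the scaling. After quantile normalization or a shift to a common median the list held 2 falls and 1 rise. TUA1, an alpha-tubulin, had a change of 0.36 in the deposited values and was not called there.

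IQD proteins bind calmodulin, and several attach to microtubules. Of 15 measured IQD genes, grouped by symbol after the values had been seen, 2 rose and 7 fell, with a median of -0.50. For comparison, 4.42% of all probe sets with a named gene were called higher and 9.58% lower. IQD26 read 5.93, 5.82 and 6.07 in darkness and 4.35, 3.80 and 4.09 after 24 h. It fell by 1.86 ± 0.16, or 3.63-fold (adjusted p = 4.71e-07), and its groups were more than 1 unit apart. IQD24 moved the other way, from 4.26, 4.14 and 4.52 to 6.04, 6.16 and 6.44, a rise of 1.91 ± 0.26 or 3.75-fold (adjusted p = 6.26e-05). The second rise was that of iqd21, by 0.75. Falls of IQD22, IQD19, IQD18, IQD30, IQD31 and iqd32 lay between -1.19 and -0.50. TRM28, one of the TON1-recruiting proteins that organise cortical microtubules, was named after its value was seen and fell by 1.43. That was the largest fall of 15 measured TRM genes, of which 2 fell and 0 rose, with a median of -0.13. The share called was 13.3%, against 14.0% over all probe sets with a named gene. The TRM count is therefore not read as a fall of the family.

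The called genes of shade avoidance and of auxin were all lower in the deposited values. Of 5 measured shade avoidance genes 4 fell and 0 rose, with a median of -1.04. Besides XTH33 these were HAT2, BIM1 and IAA29, and IAA29 was no longer called when dark array A, dark array B, 24 h array B or 24 h array C of the mutant was left out. HAT2, a homeodomain factor induced by auxin and shade, read 9.33, 9.58 and 9.29 in darkness and 8.35, 8.23 and 8.29 after 24 h. It fell by 1.11 ± 0.14 (adjusted p = 2.12e-05) with tight groups on both sides. BIM1, a bHLH factor of the brassinosteroid pathway, fell by 1.04. YUC2, an auxin biosynthesis gene, had a change of 0.49 and was not called. When the arrays were weighted by their quality, all 5 shade avoidance genes were called, YUC2 among them.

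On the auxin list 3 of 8 measured genes fell and 0 rose, and the list median of -0.15 came to -0.00 when the arrays were shifted to a common median. IAA20 fell by 1.51 ± 0.17 from 7.12, 6.97 and 7.46 to 5.61, 5.57 and 5.85 (adjusted p = 7.02e-06). GH3.3, which conjugates auxin to amino acids, fell by 0.82, and IAA29 by 0.70. WAG2, a kinase that directs the auxin efflux carriers, fell by 2.68 ± 0.29, or 6.43-fold, from 7.76, 7.89 and 7.17 to 4.99, 5.31 and 4.48 (adjusted p = 4.44e-06). WAG2 is not on the auxin list and is named for the size of its fall. The growth regulators ARL and EXO, known from auxin and brassinosteroid responses and named after their values were seen, both fell by 1.1.

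Few genes of light signalling had an assigned probe set of their own, and 8730 of the tested probe sets named no gene. FHL, which carries phytochrome A into the nucleus together with FHY1, read 6.11, 6.03 and 6.20 in darkness and 5.02, 4.60 and 4.44 after 24 h, a fall of 1.43 ± 0.27 (adjusted p = 0.00161). SPT, a bHLH factor that restrains cotyledon growth, fell by 1.61 ± 0.20, or 3.06-fold, from 7.88, 7.62 and 8.21 to 6.06, 6.03 and 6.79 (adjusted p = 2.41e-05). HYH, the close homologue of the light-response factor HY5, read 4.94, 4.91 and 4.81 in darkness and 5.61, 5.29 and 5.97 after 24 h. Its groups did not overlap, yet the change of 0.74 ± 0.24 had an adjusted p of 0.0571. That outcome depended on the scaling. HYH had the highest change of the 3 measured light signalling factors. Their list held 0 called rises in the deposited values and 1 after quantile normalization or a shift to a common median. GI, a clock component, rose by 1.18 ± 0.23 from 7.48, 7.19 and 8.09 to 8.81, 8.46 and 9.03 (adjusted p = 0.00166). UGT78D2, which adds glucose to flavonoids, rose by 1.04, as the single called member of 6 measured flavonoid genes. That share was 16.7%, against 14.0% over all probe sets with a named gene, and is not read as a rise of the group.

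Of the 4 measured genes of seed storage and reserve use 2 fell and 0 rose. OLEO3, an oleosin that coats oil bodies, read 8.41, 8.61 and 8.18 in darkness and 5.51, 5.79 and 5.09 after 24 h, with more than 2 units between the groups. It fell by 2.93 ± 0.22, or 7.64-fold (adjusted p = 1.34e-07). ICL, isocitrate lyase of the glyoxylate cycle that turns oil into sugar, fell by 0.67 (adjusted p = 0.0108), and the 2 other measured genes, AIM1 and SDP1, had changes of -0.15 and 0.16. When the arrays were shifted to a common median, 1 fall of the 2 was called. EEL, a bZIP factor of seed maturation, and AT2G46140, a late embryogenesis abundant protein, each fell by 1.18 and were named after their values were seen. The effect of age on these seed transcripts cannot be told apart from that of light.

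Transporters of sugar and nitrate were among the genes that rose. AT3G21670 read 4.73, 5.50 and 4.60 in darkness and 7.93, 7.27 and 7.86 after 24 h, a rise of 2.74 ± 0.25 or 6.69-fold (adjusted p = 1.2e-06). Dark replicate B was the highest of its group and 24 h replicate B the lowest of its own, still 1.77 apart. Of 14 measured SWEET genes, which encode sugar transporters, 3 rose, 1 fell and 10 were not called. For comparison, 4.42% of all probe sets with a named gene were called higher. SWEET1, SWEET17 and SWEET2 rose by 1.09, 1.03 and 0.72, and SWEET3 fell by 0.81. After a shift to a common median 6 rose and 1 fell, and leaving out a single array left 2 or 3 rises. APL3, a subunit of the starch-synthesis enzyme ADP-glucose pyrophosphorylase, fell by 1.12.

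THI2.2, a thionin of plant defence, rose by 1.86 ± 0.33 from 4.89, 4.81 and 4.92 to 7.36, 6.95 and 5.92 (adjusted p = 0.000706), with replicate C well under the other 24 h arrays. GSTU18, a glutathione transferase, rose by 1.60 ± 0.16 with 24 h arrays of 8.89, 8.82 and 8.82, against 7.17, 7.36 and 7.21 in darkness. The cytokinin response regulator RR16 rose by 1.42 ± 0.32 (adjusted p = 0.00542), but its 24 h arrays read 3.25, 5.25 and 3.61, so that replicate B carried most of the change over dark arrays of 2.65, 2.8 and 2.4. The dark arrays lay under the unspiked controls and 24 h replicate A at their level, so the size of this change is not exact, and the call was lost when only the groups compared were fitted. ARR15, the other of the 2 measured cytokinin genes, had a change of 0.17 and was not called (adjusted p = 0.719). The serine carboxypeptidase-like gene scpl40 fell by 1.89 ± 0.22 (adjusted p = 9.25e-06).

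Of 24 measured cytochrome P450 genes 0 were called and 0 had an unadjusted p under 0.05. Most of the 24 were of the CYP71B subfamily, so they do not stand for all cytochromes P450. Over all probe sets 11.5% were called and 23.7% had an unadjusted p under 0.05.

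Markers of other organs were read beside these results. The 3 measured root markers had array means of 6.11 to 6.32 in darkness and 6.18 to 6.25 after 24 h, and 2 of the 3 had a mean under 5. The 6 measured markers of cotyledon, leaf and epidermis had array means of 4.85 to 5.02 in darkness and 5.04 to 5.26 after 24 h, 4 of them with a mean under 5. Neither list had a called gene, while 2 genes of the latter and 0 of the former had an unadjusted p under 0.05. Over all probe sets 23.7% had one. The 5 measured genes of stress and handling had array means of 5.61 to 5.81 and 5.54 to 5.98, with 0 called and 3 at an unadjusted p under 0.05. The part of any of these in the changes above was not tested.

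Probe sets of genes with no name in the tables included still larger changes. AT5G48490 rose by 3.38 ± 0.31, or 10.4-fold, from 7.81, 8.33 and 7.33 to 11.22, 11.25 and 11.13 (adjusted p = 1.2e-06). AT1G21500 rose by 8.98-fold (adjusted p = 7.64e-08). AT4G11610 fell by 3.96 ± 0.17, or 15.5-fold, from 7.94, 7.65 and 7.94 to 3.70, 3.83 and 4.14 (adjusted p = 8.70e-11), and AT2G34020 fell by 3.83 ± 0.18 (adjusted p = 1.72e-10). The 24 h arrays of both falling genes read at most 4.14, close to the means of 3.24 to 3.31 that the unspiked control probe sets gave on the 6 arrays, which limits how large a fall these arrays can show.

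The mutant exposed for 1 h at 0.5 µmol/m2/s was compared with the same 3 dark arrays, so the values of both times are set side by side and their likeness is not a result. At 1 h 0.699% of the probe sets were called, 105 higher and 54 lower (0.462% and 0.237%). AT3G21670 had a change of 2.14 at 1 h (adjusted p = 9.37e-05) and 2.74 at 24 h. GI had changes of 1.56 and 1.18, and UGT78D2 of 1.76 and 1.04, each called at both times. IAA29, an auxin and shade response gene, read 6.04, 5.80 and 5.59 at 1 h, under the 8.13, 8.45 and 8.04 of the dark arrays, and 7.82, 7.43 and 7.26 at 24 h. Its change was -2.39 at 1 h (adjusted p = 2.25e-06) and -0.70 at 24 h (adjusted p = 0.0349), and the 24 h arrays lay between the other groups without overlap. HYH had a called change of 1.57 at 1 h and, in the deposited values, an uncalled one of 0.74 at 24 h. EXO and ARL had called falls of -0.73 and -1.0 at 1 h and of -1.1 each at 24 h.

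At 1 h so few probe sets were called (0.699%) that a count of 0 in a short list is no different from the background. Of the 8 photosystem genes, the 4 of carbon fixation and the 18 of cell wall expansion, 0 were called at 1 h, with median changes of 0.23, 0.24 and -0.03. PSAN changed by 0.24 at 1 h (adjusted p = 0.924), EXPA9 by -0.49 (adjusted p = 0.537), TUB1 by 0.22 (adjusted p = 0.989) and OLEO3 by -0.21 (adjusted p = 0.976), none of them called. IQD26 was called at both times, with -0.75 at 1 h and -1.86 at 24 h. The time points differ in fluence rate as well, and no test of the difference between them was made.

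**Figure D3:**
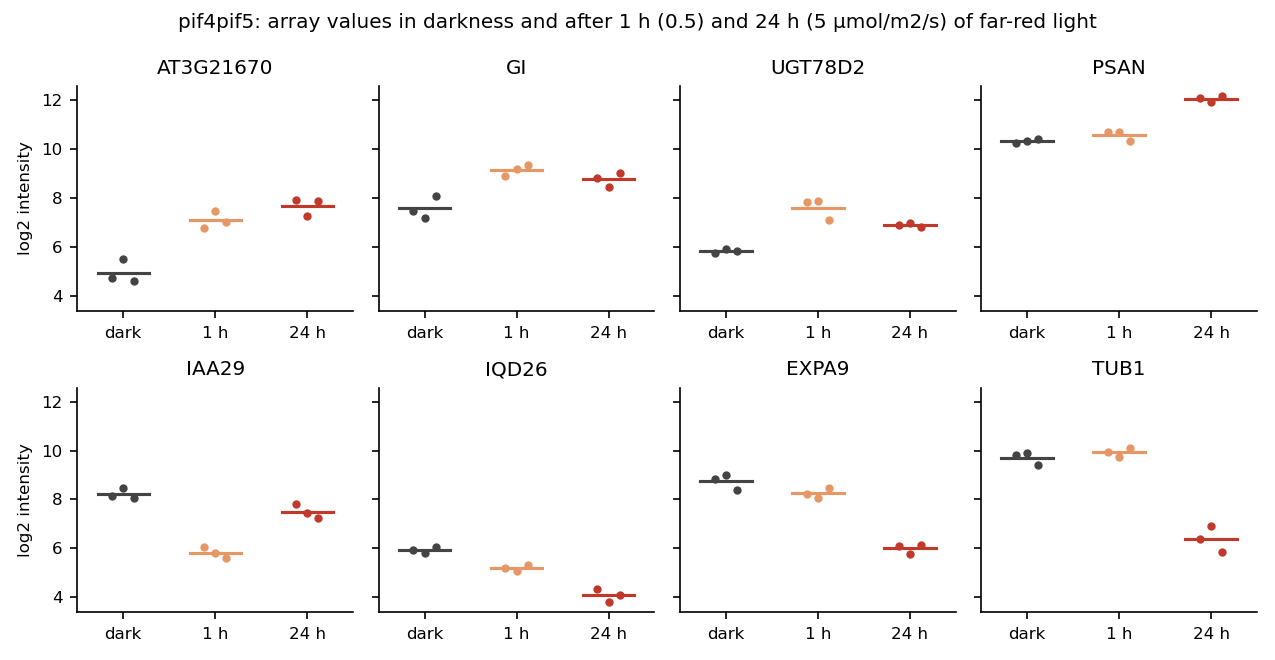
Log2 intensities of 8 genes in pif4pif5 in darkness and after far-red exposure for 1 h (0.5 µmol/m2/s) or 24 h (5 µmol/m2/s); points are the 3 arrays of a group and lines their means. AT3G21670, GI and UGT78D2 were already high at 1 h, IAA29 was lowest at 1 h, and PSAN, EXPA9 and TUB1 were called at 24 h and not at 1 h.

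The 24 h response of the mutant was set against that of wild type, which uses none of the same arrays. In wild type 11.3% of the probe sets were called. The 1574 probe sets called in both genotypes made up 60.4% of the mutant calls and 61.5% of the wild-type calls, and 1573 of them moved in the same direction. Of the 2605 mutant calls 98.5% had the same sign in wild type, against 67.6% of all probe sets. Across the mutant calls, which are not independent of each other, the changes in the genotypes correlated with r = 0.94, and across all probe sets with r = 0.75. Genes that rose in the mutant had a median change of 0.97 in both genotypes. Genes that fell in the mutant had a median of -0.74 there and of -0.55 in wild type, but the choice of genes by their mutant change favours the mutant. Genes that fell in wild type had a median of -0.55 in the mutant and of -0.69 in wild type.

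In the lists the values were as follows, with no called difference between the genotypes for any member. The photosystem list had a median change of 1.22 in the mutant and 1.66 in wild type, and all 8 members changed less in the mutant. Dark levels differed too. PSAN had means of 10.34 in dark mutants and 9.68 in dark wild type, and of 12.06 and 11.96 after 24 h. PSAE-1 had 10.68 and 9.77, and 11.97 and 11.66. PSBY, PSBW and LHCB4.2 were likewise higher in dark mutants. The genotype difference in darkness was not tested. Chlorophyll and haem synthesis had medians of 0.80 and 0.64, carbon fixation 1.06 and 1.45, and shade avoidance -1.04 and -0.72. The cell wall list had a median of -0.49 with 9 falls in the mutant and of -0.24 with 5 falls in wild type. EXPA9 changed by -2.75 in the mutant and -2.74 in wild type, EXLA2 by -1.77 and -0.58, and TUB1 by -3.32 and -2.76. OLEO3 changed by -2.93 and -1.82, with a difference of -1.12 (adjusted p = 0.84). No listed gene named above had a called difference between the genotypes.

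The test of the difference itself, the change in the mutant minus the change in wild type, called 3 probe sets, or 0.0132%, while 1338 had an unadjusted p under 0.05. Of the 1031 probe sets called in the mutant and not in wild type, 184 had an unadjusted p under 0.05 in this test. The probe set 245325_at, with no assigned gene, read 11.98, 12.06 and 12.18 in dark mutants and 8.88, 9.29 and 9.04 after 24 h. In wild type it read 12.31, 12.42 and 12.37 in darkness and 11.81, 11.60 and 11.62 after 24 h. It fell in both genotypes, by 3.01 in the mutant and by 0.69 in wild type, and the difference was -2.31 ± 0.18 (adjusted p = 5.27e-06).

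AT5G02580, a gene with no name in the tables, read 7.26, 7.30 and 7.36 in dark mutants, 5.52, 5.50 and 5.51 after 1 h and 5.67, 5.80 and 5.42 after 24 h. In wild type it read 7.90, 7.60 and 8.17 in darkness, 6.58, 6.98 and 6.67 after 1 h and 7.60, 7.78 and 7.63 after 24 h. The 24 h arrays of wild type thus overlapped its dark arrays, and those of the mutant stayed at the level of 1 h. The change at 24 h was -1.67 in the mutant and -0.22 in wild type, with a difference of -1.45 ± 0.21 (adjusted p = 0.0293). The call was held in 10 of the 21 alternatives tried. It was lost with the replicate block (adjusted p = 0.0515), with only the groups compared in the fit (adjusted p = 0.237), with a minimum change of 2-fold, and when any of the 24 h arrays or mutant dark arrays except 24 h mutant replicate B was left out.

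The probe set 265724_at, also without an assigned gene, rose from 3.46, 3.27 and 3.85 to 7.01, 7.15 and 7.02 in the mutant, and from 3.45, 3.3 and 3.57 to 5.78, 5.26 and 5.60 in wild type. The 24 h groups of the genotypes did not overlap and the dark groups did. The rises were 3.53 and 2.11, and the difference of 1.42 ± 0.22 had an adjusted p of 0.0343, a call held in 6 of 19 alternatives. The dark arrays of both genotypes read at the level of the unspiked controls, so each rise is a lower bound and the difference between them is not exact. AT4G11610, the gene with the largest fall, changed by -3.96 in the mutant and -2.57 in wild type. That difference of -1.38 was not called (adjusted p = 0.127).

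**Figure D4:**
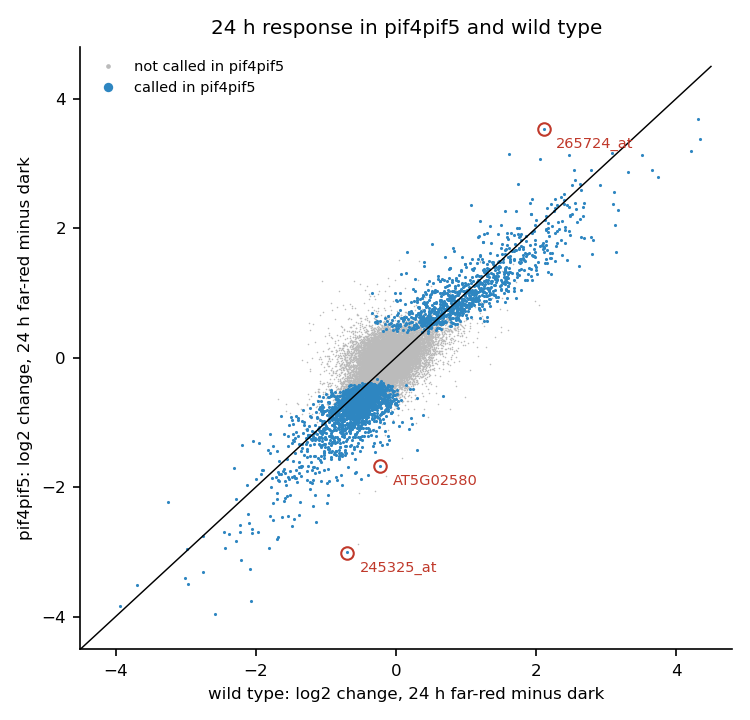
Log2 change at 24 h of far-red light in pif4pif5 (vertical) against wild type (horizontal) for 22746 probe sets; blue points were called in pif4pif5, grey points were not, the line marks equal changes and circles mark the 3 probe sets whose change differed between the genotypes at an adjusted p under 0.05. Called points run along the line (r = 0.94) and 245325_at lies farthest below it among the circled ones.

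Counts of calls moved when a single array was left out. Without dark mutant replicate B the number of calls was 1543, the lowest of the 6 counts with a mutant array left out, and the highest was 2284, without dark mutant replicate C. Without wild-type dark replicate A the count of differences between the genotypes was 118, against 3 with all arrays. Of these 118 probe sets 112 had the higher change in the mutant. The highest array median in the series, 6.16, was that of wild-type dark replicate C, and without that array the count was 4.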

How the data were processed

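Total RNA of whole seedlings (100 ng) was amplified, labelled with biotin and hybridised to Affymetrix arrays, per the labels' protocols. The deposited values are log2 intensities that the authors made with RMA, per the submitters' processing notes; for its background model, version and probe definitions the sources used here give nothing, and their effect on the values was not tested. Columns without a sample of the series: 0.

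The values were used as deposited. Control probe sets (64 of 22810) were left out. A linear model with a mean for each of the 6 groups was fitted in limma 3.58.1 over the 18 arrays (R 4.3.3, statmod 1.5.0; 12 residual and 5.91 prior degrees of freedom) since 3 arrays a group leave few degrees of freedom. Benjamini-Hochberg adjustment ran over the 22746 tested probe sets of a comparison. An exact test of 3 against 3 arrays cannot go below 0.1. The comparisons were 24 h far-red against dark in the mutant, the same in wild type, the difference between these, and 1 h against darkness in the mutant.

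Genes were assigned from the platform's probe table: 13513 probe sets named 1 gene, 503 several and 8730 none. Symbols came from the RefSeq gene table of assembly TAIR10.1. Where a gene had several probe sets (144 genes), lists used the one of highest mean. Of 746 genes entered in 26 lists, 732 matched the table and 103 were measured. Genes are named by a rule: the 10 largest rises and falls among called, named genes with separate groups, up to 4 called members of each list and up to 3 of each of 22 name families, a list's member of lowest p where none was called, the called genotype differences, and at most 2 unnamed genes each way. Other genes are named as members of groups by symbol stem, thylakoid words or plastid genome, all made after values were seen, or, where said, for their own values. Members and lists were chosen with earlier results of these data known. Alternatives were other groups in the fit, quantile and median scaling, replicate letter as a block, array weights, a trended robust prior, a minimum mean of 5, a minimum change of 2-fold, single-gene probe sets, and each array left out. The procedure was tested on simulated data.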

Additional observations from a re-analysis of the deposited data

Results flagged for a closer look

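Here 3 probe sets are listed because the change at 24 h differed between the genotypes in the test of that difference. For 245325_at, with no assigned gene, the mutant change minus the wild-type change was -2.31 (-3.01 in the mutant and -0.69 in wild type), and it was called in all 20 alternatives tried, with differences from -2.42 to -2.20 and adjusted p values from 4.94e-08 to 0.013. For AT5G02580 the difference was -1.45 (-1.67 and -0.22), called in 10 of 21 alternatives, with values from -1.59 to -1.30 and adjusted p values from 0.00384 to 1. For 265724_at the difference was 1.42 (3.53 and 2.11), called in 6 of 19 alternatives, with values from 1.28 to 1.58 and adjusted p values from 0.00989 to 1. Both probe sets that lost the call kept the sign of the difference in every alternative tried.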

How the results depend on the processing

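The number of probe sets called in the mutant at 24 h, 2605 as reported, was 2555 with only the mutant groups compared in the fit, 2829 after quantile normalization, 2805 after a shift to a common median, 2701 with a trended robust prior and 2827 with means under 5 left out. It was 4607 with array weights, 137 with a minimum change of 2-fold and 1181 with single-gene probe sets alone; leaving out an array gave 1543 (without mutant dark replicate B) to 2284. Between dark and 24 h mutant arrays, correlations of deviations were 0.03, 0.23 and 0.32 for the same replicate letter. For different letters they lay between -0.26 and 0.12. Whether the letters pair the samples is not settled by these values, and the reported fit held no replicate term. With the replicate block the count was 2961, 2572 of them shared with the reported calls. The count of genotype differences, 3 as reported, was 1 with only the groups compared, with the replicate block, with a minimum of 2-fold and with single-gene probe sets, and 1 to 118 with an array left out, the 118 without wild-type dark replicate A. The wild-type count of 2559 was 756 with only its groups compared, 1531 with array weights, 137 with a minimum of 2-fold, 1220 with single-gene probe sets and 1676 (without 24 h replicate C) to 3814 (without dark replicate A) with an array left out. The 1 h count of 159 was 474 with array weights, 18 with a minimum of 2-fold, 30 with single-gene probe sets and 84 to 177 with an array left out, lowest without mutant dark replicate A (103), dark replicate B (98), 1 h replicate A (99) or 1 h replicate B (84). Causes of these moves were not tested, except that a 2-fold minimum is a stricter test and single-gene probe sets are fewer tests.

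For the 77 named genes 1146 values were recomputed: 1046 kept direction and side of the threshold, 90 lost the call, 9 gained it and 1 changed sign, that of SIR (sulfite reductase), which was not called and went from -0.12 to 0.03 under the shift to a common median. Without the 2-fold minimum, calls were lost for IAA29, GH3.3, TUB5, TUB7, ICL, RR16, GSTU20, HTB2 and AT2G41480 in at least 1 setting, and COR15A, LYC and SPCH gained one. Values near 3.3, the level of unspiked controls, limit how large a fall can be measured.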
